A study of Mus musculus with 17 samples.

Results

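Integrins are the paired receptors by which cells grip the matrix and each other, and laminins are the trimeric proteins that build basement membranes and serve as ligands for several integrins. Integrin and laminin chains were described here in mouse liver from the rows of the deposited expression table whose gene symbol is an integrin alpha chain (Itga), an integrin beta chain (Itgb) or a laminin alpha, beta or gamma chain (Lama, Lamb, Lamc). There were 37 such genes among the 52545 in the table: 18 integrin alpha chains, 8 integrin beta chains and 11 laminin chains. The choice used names alone and no measured value, though the naming rule was set with earlier results of these data known. Of the 37, 36 passed the filter on low values and were tested among 18624 genes, while Itgad, the integrin alpha-D chain of some macrophages, stayed between 0 and 15.5 normalized counts and was not tested.

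The libraries came from 17 C57BL/6J mice, all male and 32 weeks old, 1 library from the non-tumorous liver of each. In the CLDN1 mAb group (6 mice), animals were fed CDA-HFD, a choline-deficient high-fat diet with defined amino acids, and had been given the liver carcinogen diethylnitrosamine (DEN) at 100 mg/kg once in week 1. They then received 500 µg of a monoclonal antibody to claudin-1, a tight junction protein, by intraperitoneal injection 1 time a week for 16 weeks. The Vehicle Control group (6 mice) had the same DEN dose and diet with weekly PBS, and the Regular diet group (5 mice) was untreated and had neither DEN nor CDA-HFD. DEN, diet and injections came together, so in a comparison with Regular diet their effects cannot be told apart. The labels name 1 strain and no pooling, and the p-values below for group differences set those differences against the spread between these mice.

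Each integrin is a dimer of 1 alpha and 1 beta chain, and each laminin a trimer of 1 alpha, 1 beta and 1 gamma chain, so the mixture of chains that a tissue makes sets which receptors and which laminins can form. In healthy liver, hepatocytes face a sinusoidal space with little basement membrane, whereas bile ducts and larger vessels rest on laminin-rich membranes. In scarring liver, integrins with the alpha-V chain are known for freeing active TGF-beta from its latent form, and those with the beta-2 chain are found on white blood cells.

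Values are the authors' cuffnorm-normalized counts. Differences were fitted by limma on log2(normalized count + 1), and a gene is called where the Benjamini-Hochberg adjusted p over all 18624 genes is below 0.05. For the groups of 6, the lowest and highest library are given with the median, and for Regular diet the 5 libraries are listed from 1 to 5. Both comparisons with Regular diet use the same 5 Regular diet libraries.

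Deposited totals per library were 35.4 to 42.8 M (mega-counts) in CLDN1 mAb, 29.7 to 42.1 M in Vehicle Control and 48.2 to 74.6 M in Regular diet, and estimated fragments ran from 27.7 to 59.5 M. Some libraries stood apart: Regular diet 1 had the largest total, and Vehicle Control 1 was the lowest of its group for 21 of the 25 chains that were higher in Vehicle Control than in Regular diet. Vehicle Control 3, 4 and 6, the libraries with the smallest totals, were the top 3 of their group for 22 of those 25 chains. The 5 Regular diet libraries carry the consecutive codes 31 to 35, and whether the codes mark a batch is not given. Hepatocyte markers, which define the labelled tissue, were abundant in all 17 libraries, with summed levels of 898992 to 1496674 in CLDN1 mAb, 419335 to 1414254 in Vehicle Control and 1882760 to 3419826 in Regular diet. Alb, the albumin gene and a main transcript of liver, was nevertheless listed at 0 in every library, so a 0 in this table need not mean absence.

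The promoters of the 4 chains that rose most among those with a RefSeq promoter window are shown first, since these chains carry the largest differences in the report. Each window runs from 250 bases before the transcription start to 50 after it (RefSeq, GRCm38.p6, written 5′ to 3′ on the gene's strand), and capitals mark a PU.1 core or an AP-1 site. Windows were found for 23 of the 37 chains.
Itgax (chr7:128129300-128129599, plus strand): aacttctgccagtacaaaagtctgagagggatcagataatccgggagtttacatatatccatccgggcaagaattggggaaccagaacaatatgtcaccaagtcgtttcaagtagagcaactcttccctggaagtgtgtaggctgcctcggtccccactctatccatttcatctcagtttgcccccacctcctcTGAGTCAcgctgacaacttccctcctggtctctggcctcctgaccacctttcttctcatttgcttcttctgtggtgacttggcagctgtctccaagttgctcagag
Itgb6 (chr2:60722554-60722853, minus strand): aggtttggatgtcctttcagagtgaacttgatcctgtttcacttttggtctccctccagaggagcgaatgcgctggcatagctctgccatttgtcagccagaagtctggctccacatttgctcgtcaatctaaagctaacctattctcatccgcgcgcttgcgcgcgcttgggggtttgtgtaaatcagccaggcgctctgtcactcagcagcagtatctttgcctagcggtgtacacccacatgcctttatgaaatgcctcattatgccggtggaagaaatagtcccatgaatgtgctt
Itgam (chr7:128062390-128062689, plus strand): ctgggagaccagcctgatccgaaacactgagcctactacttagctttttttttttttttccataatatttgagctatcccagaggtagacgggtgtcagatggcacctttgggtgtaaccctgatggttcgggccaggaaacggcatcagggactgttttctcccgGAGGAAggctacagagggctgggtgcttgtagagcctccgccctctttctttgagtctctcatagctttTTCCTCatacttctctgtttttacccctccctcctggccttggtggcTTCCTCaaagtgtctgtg
Itga2 (chr13:114932051-114932350, minus strand): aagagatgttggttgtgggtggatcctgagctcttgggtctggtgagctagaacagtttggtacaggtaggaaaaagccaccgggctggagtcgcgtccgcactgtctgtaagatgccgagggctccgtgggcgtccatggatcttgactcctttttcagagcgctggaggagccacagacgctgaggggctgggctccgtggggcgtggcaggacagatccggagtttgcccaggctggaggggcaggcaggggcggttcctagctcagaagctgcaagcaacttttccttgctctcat
The 3 motifs below were searched on both strands: the PU.1 core, which reads GAGGAA or on the other strand TTCCTC, the AP-1 site, which reads TGANTCA, and the TEAD site, which reads GGAATG or on the other strand CATTCC. PU.1 is the myeloid master transcription factor, AP-1 a stress and growth factor-driven one, and TEAD the DNA-binding partner of YAP. The Itgam window held 3 PU.1 cores and the Itgax window 1 AP-1 site, and these windows of Itgb6 and Itga2 held none of the motifs. A PU.1 core was in 14 of the 26 chain windows and in 28.3% of all 32851 mouse promoter windows. Those 14 belonged to Itga11, Itga2b, Itga3, Itga5, Itgam, Itgav, Itgb1, Itgb6 (a window not shown), Itgb7, Lama2, Lama5, Lamb1, Lamb2 and Lamb3. Most are not leukocyte chains. AP-1 sites were in 3 of 26 and 7.81%, and TEAD sites in 3 of 26 and 14.7%. These are letter matches and were not tested against binding.

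The livers that had DEN and CDA-HFD carried more RNA of most integrin and laminin chains than Regular diet livers, led by the leukocyte chain Itgax and the epithelial chain Itgb6. Of the 36 chains tested, 25 were higher in Vehicle Control than in Regular diet, 23 of them at least 2-fold, and 3 were lower. Among all genes tested 29.8% were higher and 20.7% lower. The median difference over the chains was 1.43 on the log2 scale, against 0.043 over all genes. In CLDN1 mAb livers, 21 chains were higher and 4 lower than in Regular diet, where 24.8% and 14.1% of all genes were, with a median of 1.22 over the chains and 0.0054 over all genes. For 15 of the 36 chains (41.7%) every Vehicle Control liver was above every Regular diet liver, which held for 19.1% of all genes. Bulk liver cannot tell more cells of a type from more RNA per cell.

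The size and split of these counts depend on how libraries are scaled. With the deposited values set to the same total per library, the median over all genes moved to 0.65 for Vehicle Control and 0.44 for CLDN1 mAb, and 9369 genes were called higher and 1264 lower in Vehicle Control, in place of 5547 and 3853. With that scaling 30 chains were higher and 1 lower in Vehicle Control, and 26 higher and 1 lower in CLDN1 mAb, where 7063 genes were called higher and 831 lower in place of 4613 and 2634. Quantile normalization gave 4447 genes higher and 5223 lower, with 25 chains higher and 4 lower in Vehicle Control, and 3553 and 3725 genes with 21 and 6 chains in CLDN1 mAb. Median ratio scaling gave 5293 genes higher and 4336 lower in Vehicle Control. Relative to the median of all genes, the chains' median difference was 1.39, 1.40 and 1.45 in Vehicle Control as deposited, with the same total and after quantile normalization. Without Regular diet 1 and Vehicle Control 1, a choice made after seeing the data, 27 chains were higher and 3 lower in Vehicle Control, and 22 higher and 5 lower in CLDN1 mAb. In that fit, 6404 of all 18624 genes were higher and 5094 lower in Vehicle Control, and 5565 and 4445 in CLDN1 mAb.

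**Figure D1:**
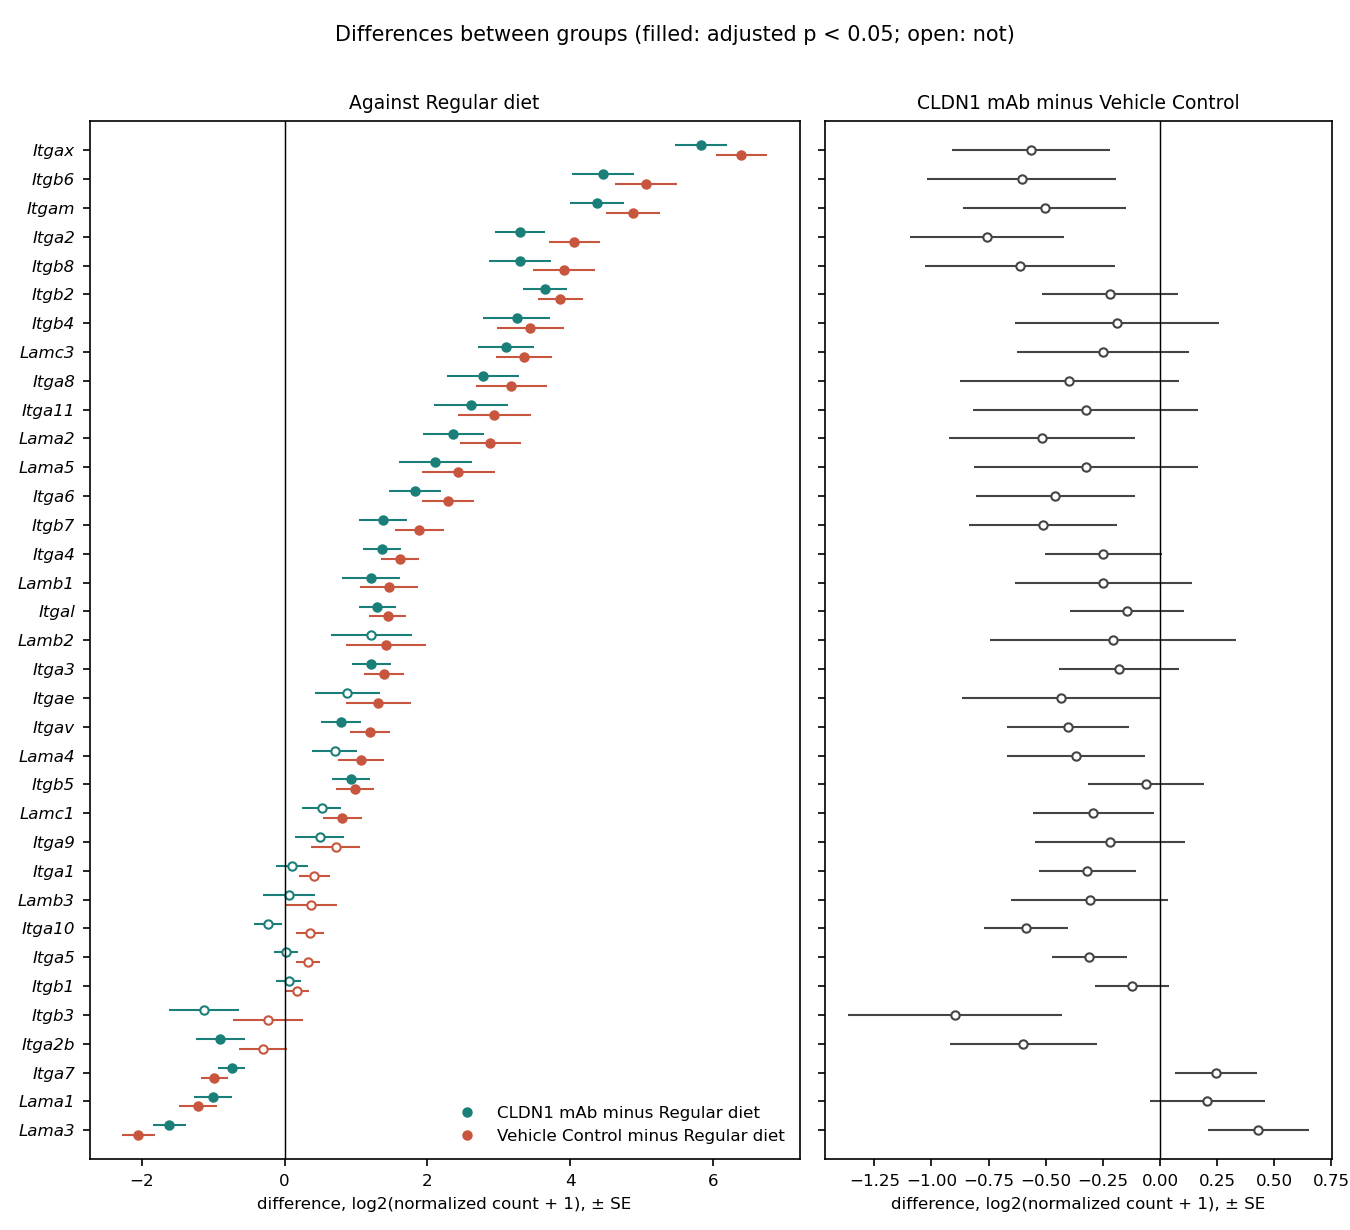
Difference of 35 of the 36 tested chains on the log2(normalized count + 1) scale with its standard error, against Regular diet on the left and CLDN1 mAb minus Vehicle Control on the right; filled points passed an adjusted p of 0.05. Against Regular diet the points run from 6.40 for Itgax to -2.04 for Lama3 in Vehicle Control, whereas all 35 points of CLDN1 mAb minus Vehicle Control are open.

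Leukocyte integrin chains were higher in both diseased groups, with Itgae the exception in CLDN1 mAb. Of the 4 leukocyte alpha chains tested, 3 were higher in CLDN1 mAb than in Regular diet and 4 in Vehicle Control, and their beta chains Itgb2 and Itgb7 were higher in both. Among all genes 24.8% were higher in CLDN1 mAb and 29.8% in Vehicle Control. Itgax, the alpha-X chain (CD11c) of dendritic cells and of lipid-laden macrophages, had 2937 to 4455 (median 3093) normalized counts in CLDN1 mAb and 2251 to 9586 (median 5077) in Vehicle Control, against 78.6, 72.2, 21.9, 66.1 and 67.2 in Regular diet. No diseased liver came near the Regular diet range. The difference from Regular diet was 5.83 ± 0.36 (SE) on the log2 scale in CLDN1 mAb and 6.40 ± 0.36 (SE) in Vehicle Control, an 84.3-fold step with an adjusted p of 8.33e-10. The highest CLDN1 mAb library, replicate 2, lay apart from the other 5, which ranged only from 2937 to 3094.

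Itgam, the alpha-M chain (CD11b) of monocytes, macrophages and neutrophils, had 743 to 1796 (median 1418) normalized counts in CLDN1 mAb and 995 to 2999 (median 1938) in Vehicle Control, against 24.6, 78.7, 41.1, 86.7 and 122 in Regular diet. Its differences from Regular diet were 4.38 ± 0.37 (SE) and 4.88 ± 0.37 (SE) on the log2 scale in CLDN1 mAb and Vehicle Control, with an adjusted p of 7.34e-08 and 1.53e-08. Groups did not overlap. Itgam shares 68.7% of its exon bases with the overlapping gene model Gm49368 on the same strand, so part of its reads could have been counted there. Itgb2, the beta-2 chain common to Itgal, Itgam, Itgax and Itgad, had 3693 to 7031 (median 4974) in CLDN1 mAb and 2623 to 10380 (median 6297) in Vehicle Control, against 405, 520, 233, 403 and 550 in Regular diet. Every diseased liver was above every Regular diet liver, by 3.65 ± 0.31 (SE) in CLDN1 mAb and 3.86 ± 0.31 (SE) in Vehicle Control on the log2 scale (adjusted p 2.56e-08).

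The lymphocyte chains differed less. Itgal, the alpha-L chain by which T cells and other leukocytes bind ICAM proteins, had 1125 to 2136 (median 1340) in CLDN1 mAb and 1064 to 2411 (median 1534) in Vehicle Control, against 477, 824, 354, 556 and 826 normalized counts in Regular diet. That was a difference of 1.30 ± 0.26 (SE) in CLDN1 mAb and 1.44 ± 0.26 (SE) in Vehicle Control on the log2 scale (adjusted p 0.000178), with no overlap. Itgb7, the beta chain of gut-homing and intraepithelial lymphocytes, had 224 to 485 (median 299) in CLDN1 mAb and 175 to 779 (median 485) in Vehicle Control, against 184, 160, 81.4, 86.7 and 108 in Regular diet. CLDN1 mAb was clear of Regular diet, and Vehicle Control overlapped it in replicate 1 (adjusted p 0.000168 for a difference of 1.89 ± 0.34 (SE)). Itga4, which with a beta-1 or beta-7 partner binds VCAM, had 486 to 912 (median 721) in CLDN1 mAb and 510 to 1386 (median 867) in Vehicle Control, against 187, 362, 251, 211 and 390 in Regular diet. All diseased livers were above all Regular diet livers, by 1.62 ± 0.27 (SE) in Vehicle Control (adjusted p 8.17e-05).

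Itgae, the alpha-E chain (CD103) that with beta-7 holds lymphocytes to E-cadherin, was the least firm of the group. It had 50 to 106 (median 69.4) in CLDN1 mAb and 42.1 to 254 (median 106) in Vehicle Control, against 71.2, 45.9, 15.8, 39.9 and 38.2 in Regular diet, and the groups overlapped. Its difference of 1.31 ± 0.45 (SE) in Vehicle Control had an adjusted p of 0.0228, and that of 0.88 ± 0.45 (SE) in CLDN1 mAb did not pass (adjusted p 0.138), except with libraries set to the same total (1.31, adjusted p 0.0461) or without Regular diet 1 and Vehicle Control 1 together (1.10, adjusted p 0.0478). The Vehicle Control call ended in 7 of the alternatives, among them leaving out Vehicle Control 3, 4 or 6 (adjusted p 0.0538, 0.0511 and 0.0576) and Regular diet 3 (0.0767), and quantile normalization (0.259). Itga9, a receptor for tenascin and other matrix proteins, had 728 to 1914 (median 1371) in CLDN1 mAb and 590 to 2919 (median 1771) in Vehicle Control, against 744, 1215, 743, 976 and 837 in Regular diet, and passed no threshold (adjusted p 0.0928 in Vehicle Control). Without Vehicle Control 1 it did, at 0.98 on the log2 scale (adjusted p 0.0103), as with the same total (1.34, adjusted p 0.0133).

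White blood cell markers were higher in the same livers. All 8 pan-leukocyte markers were higher in both diseased groups than in Regular diet, with summed levels of 22152 to 31251 in CLDN1 mAb, 18469 to 50064 in Vehicle Control and 8062 to 10734 in Regular diet. Cd53, a leukocyte tetraspanin, averaged 2300 ± 383 normalized counts in CLDN1 mAb, 3850 ± 1670 in Vehicle Control and 364 ± 106 in Regular diet (SD, n = 6, 6 and 5). In CLDN1 mAb, 8 of 10 macrophage and monocyte markers, 6 of 8 dendritic cell markers, 8 of 10 T and NK cell markers and 4 of 6 tested neutrophil markers were higher. In Vehicle Control the counts were 8 of 10, 7 of 8, 9 of 10 and 5 of 6. Among all genes 24.8% were higher in CLDN1 mAb and 29.8% in Vehicle Control. The defining neutrophil marker Ly6g was at 0 in all 5 Regular diet livers. Kupffer cell markers, those of the resident liver macrophage, went the other way, with 5 of 6 lower in CLDN1 mAb and 4 of 6 in Vehicle Control. Of all genes 14.1% and 20.7% were lower. Cd163, a scavenger receptor among them, averaged 12.1 ± 5.41 in CLDN1 mAb, 20.4 ± 11.3 in Vehicle Control and 660 ± 388 in Regular diet. The part of cell numbers in the integrin differences was not tested.

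**Figure D2:**
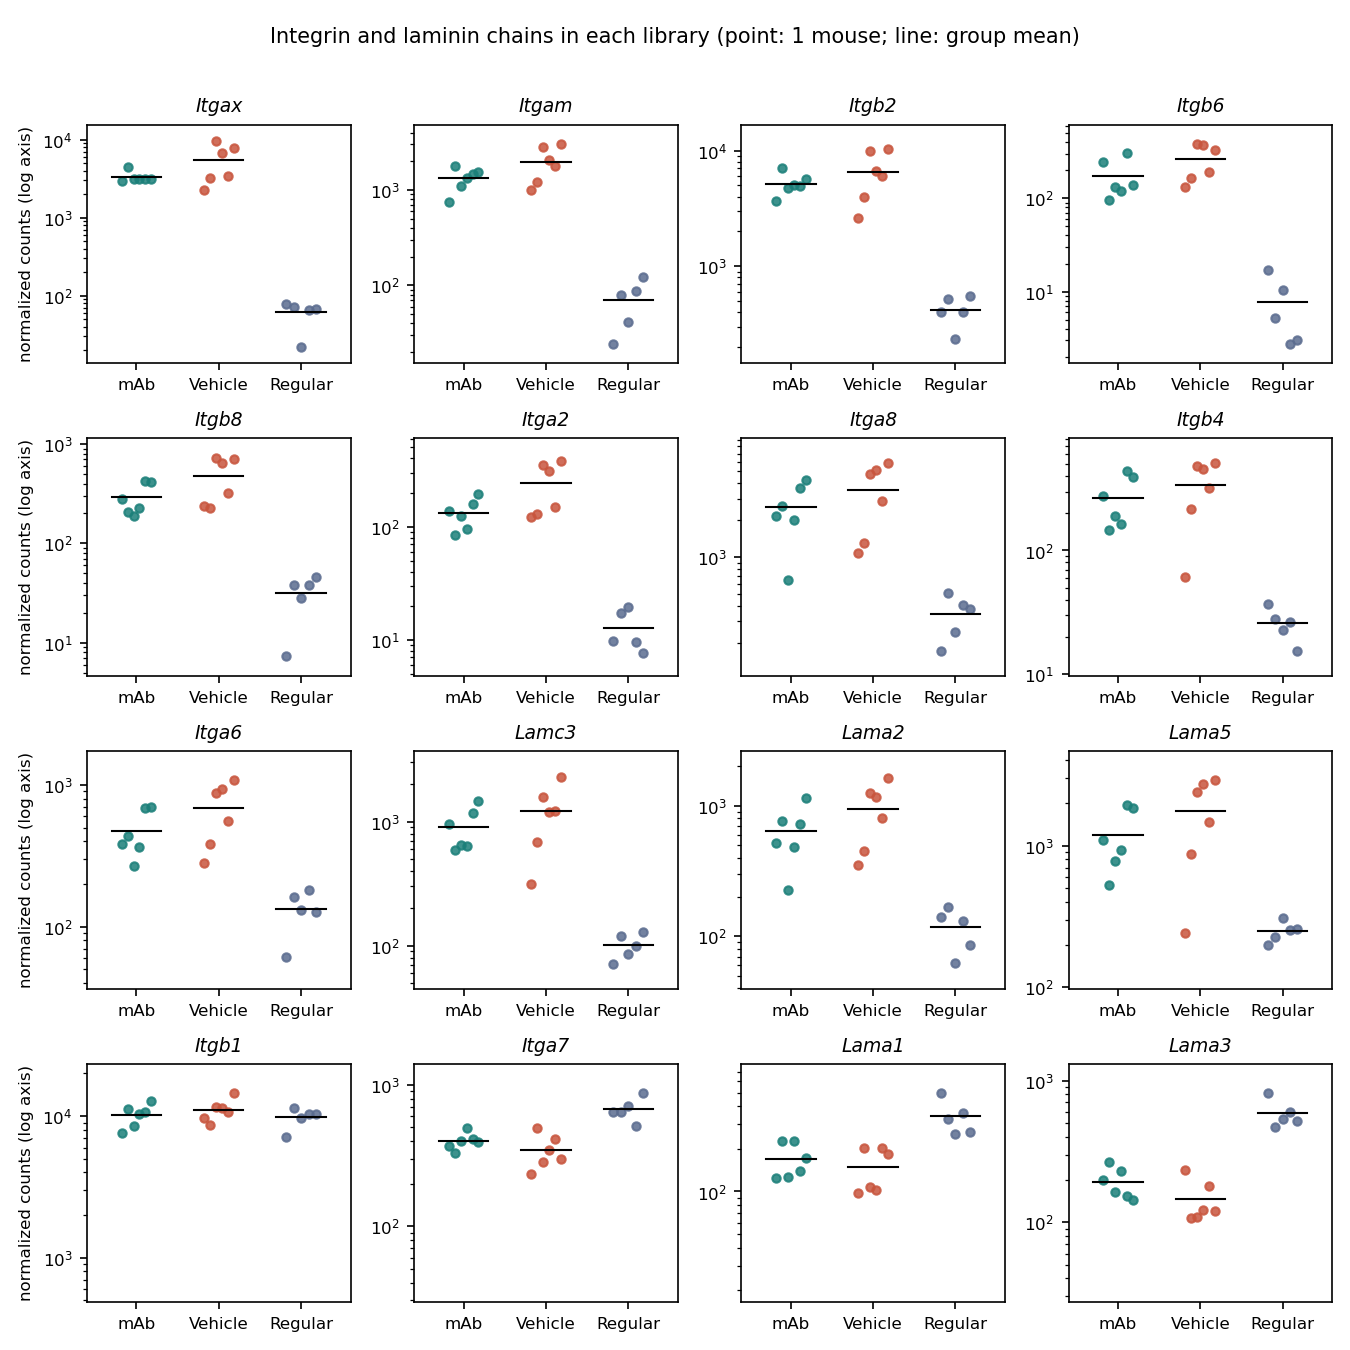
Normalized counts of 16 chains in each of 17 livers on log axes, 1 point per mouse and a line at the group mean, with CLDN1 mAb (mAb), Vehicle Control (Vehicle) and Regular diet (Regular) from left to right. For Itgax, Itgam, Itgb2 and Itgb6 the diseased livers lie clear above Regular diet, for Itgb1 the 3 groups overlap, and for Itga7, Lama1 and Lama3 both diseased groups lie below.

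Itgb6 and Itgb8, beta chains whose alpha-V integrins are tied to TGF-beta activation, were also higher in both diseased groups. Itgb6 is made by injured or growing epithelium. It had 95.2 to 302 (median 136) normalized counts in CLDN1 mAb and 133 to 381 (median 260) in Vehicle Control, against 17.2, 5.25, 10.5, 2.75 and 3.06 in Regular diet. The gene was near the floor of detection in Regular diet and present in all 12 diseased livers. Differences were 4.46 ± 0.43 (SE) and 5.06 ± 0.43 (SE) on the log2 scale in CLDN1 mAb and Vehicle Control, and the adjusted p in Vehicle Control was 4.98e-08. Itgb8, another beta chain known to activate TGF-beta, had 190 to 424 (median 254) in CLDN1 mAb and 229 to 716 (median 482) in Vehicle Control, against 7.37, 38.1, 28, 38.5 and 45.8 in Regular diet. Groups were again apart, by 3.30 ± 0.44 (SE) and 3.91 ± 0.44 (SE) on the log2 scale (adjusted p 1.01e-06 in Vehicle Control).

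Itgav, the alpha-V chain itself, had 1566 to 2836 (median 1937) in CLDN1 mAb and 1661 to 3580 (median 2880) in Vehicle Control, against 496, 1495, 1405, 1380 and 1511 in Regular diet. Regular diet 1 was far below the other 4. The difference in Vehicle Control was 1.20 ± 0.28 (SE, adjusted p 0.00168), and that in CLDN1 mAb was 0.79 ± 0.28 (SE, adjusted p 0.0317). The CLDN1 mAb call ended in 6 alternatives, 1 of them without Regular diet 1, where the difference was 0.49 (adjusted p 0.0652). Itgb5, the vitronectin-binding partner of alpha-V, averaged 7335 ± 896 in CLDN1 mAb and 8117 ± 2716 in Vehicle Control, against 4042 ± 1659 in Regular diet (SD, n = 6, 6 and 5), a log2 difference of 0.93 ± 0.27 (SE, adjusted p 0.0102) and 0.99 ± 0.27 (SE, adjusted p 0.00492) in CLDN1 mAb and Vehicle Control. Ranges overlapped, since Regular diet 1 was at 7001 and Vehicle Control 1 at 3334.

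Itga8, an RGD-binding chain, is the nephronectin receptor of mesenchymal cells such as stellate cells. It had 644 to 4224 (median 2391) normalized counts in CLDN1 mAb and 1086 to 5847 (median 3811) in Vehicle Control, against 170, 512, 246, 405 and 377 in Regular diet. No diseased liver fell in the Regular diet range, and CLDN1 mAb 3 was the lowest of the 12 diseased livers. Differences were 2.78 ± 0.50 (SE) in CLDN1 mAb and 3.18 ± 0.50 (SE) in Vehicle Control on the log2 scale (adjusted p 4.52e-05). Itga5, the fibronectin receptor chain, had 1873 to 3483 (median 2203) in CLDN1 mAb and 2469 to 3322 (median 3031) in Vehicle Control, against 3427, 1963, 2048, 2297 and 2120 in Regular diet. Regular diet 1 was the highest of all but 1 library, and the groups overlapped (adjusted p 0.122 in Vehicle Control). Without Regular diet 1, Itga5 was higher in Vehicle Control by 0.47 on the log2 scale (adjusted p 0.0131), as it was with the same total and after quantile normalization (adjusted p 0.000131 and 0.00653).

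The platelet pair Itga2b and Itgb3 was higher in neither diseased group. Itga2b, found on megakaryocytes and platelets, had 85.8 to 133 (median 100) in CLDN1 mAb and 65.5 to 345 (median 171) in Vehicle Control, against 388, 175, 144, 189 and 142 in Regular diet. The 6 CLDN1 mAb livers were below all 5 Regular diet livers (-0.90 ± 0.34, SE, adjusted p 0.0429), and that call ended in 12 alternatives, among them leaving out Regular diet 1 (-0.64, adjusted p 0.104). In Vehicle Control it passed no threshold except after quantile normalization (-0.96, adjusted p 0.00988). Itgb3, the partner of Itga2b and of Itgav, had 61.5 to 218 (median 113) in CLDN1 mAb and 60.8 to 627 (median 261) in Vehicle Control, against 204, 403, 191, 271 and 212 in Regular diet. Vehicle Control spanned the whole Regular diet range, and neither difference passed (-1.13 ± 0.49 and -0.23 ± 0.49, SE; adjusted p 0.0775 and 0.723 in CLDN1 mAb and Vehicle Control). The CLDN1 mAb difference passed in 6 alternatives, for example without Vehicle Control 1 or 6 (adjusted p 0.0368 and 0.0485) or without Regular diet 1 and Vehicle Control 1 together (-1.20, adjusted p 0.0345), where that of Vehicle Control was 0.05. Of 8 platelet markers 3 could be tested, and 1 of them, Pf4, a platelet chemokine, was higher in both diseased groups, with 220 ± 63.4 in CLDN1 mAb and 316 ± 140 in Vehicle Control, against 28.2 ± 20 in Regular diet (mean and SD). The other 2, Gp1ba and Ppbp, had log2 differences below 0 and no call (-0.52 and -0.74 in CLDN1 mAb, -0.45 and -0.37 in Vehicle Control). With 24.8% of all genes higher in CLDN1 mAb and 29.8% in Vehicle Control, 1 of 3 is near the share of all genes.

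Of the 4 collagen-binding alpha chains, 2 (50%) were higher in both diseased groups, where 24.8% of all genes were in CLDN1 mAb and 29.8% in Vehicle Control. Itga2, the collagen receptor of platelets and many epithelia, had 84 to 195 (median 130) normalized counts in CLDN1 mAb and 122 to 378 (median 229) in Vehicle Control, against 9.83, 17.1, 19.3, 9.63 and 7.64 in Regular diet. Groups were far apart, by 3.30 ± 0.35 (SE) and 4.06 ± 0.35 (SE) on the log2 scale (adjusted p 6.26e-08 in Vehicle Control). Itga11, the fibroblast collagen receptor, had 22.3 to 94.6 (median 52) in CLDN1 mAb and 11.7 to 126 (median 78.1) in Vehicle Control, against 9.83, 14.4, 5.25, 4.13 and 6.11 in Regular diet. Vehicle Control 1, at 11.7, was inside the Regular diet range and the other 11 diseased livers were above it (2.94 ± 0.52, SE, adjusted p 0.000132 in Vehicle Control). Itga1, the main collagen receptor of stellate and endothelial cells, averaged 1787 ± 370 in CLDN1 mAb and 2249 ± 611 in Vehicle Control, against 1693 ± 444 in Regular diet, and passed in neither comparison (adjusted p 0.756 and 0.128), though in Vehicle Control it did with the same total or after quantile normalization (adjusted p 0.0107 and 0.0376). Itga10, known from cartilage, had 74.3 to 127 (median 95.1) in CLDN1 mAb and 123 to 178 (median 141) in Vehicle Control, against 83.5, 104, 114, 134 and 146 in Regular diet, with overlap and no call (adjusted p 0.379 and 0.133). Its direction in Vehicle Control turned to -0.41 after quantile normalization, which called it lower in CLDN1 mAb (-0.86, adjusted p 0.00151), while the same total called it higher in Vehicle Control (0.98, adjusted p 0.00479). The overlapping gene model Gm42957 holds 33.5% of its exon bases.

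Laminin-binding integrins split. Itga6, which with beta-1 or beta-4 anchors epithelial and endothelial cells to laminin, had 268 to 704 (median 407) in CLDN1 mAb and 281 to 1082 (median 713) in Vehicle Control, against 61.4, 163, 132, 180 and 127 in Regular diet. There was no overlap (1.83 ± 0.37 and 2.29 ± 0.37, SE, in CLDN1 mAb and Vehicle Control; adjusted p 5.36e-05 in Vehicle Control). Itgb4, the hemidesmosome beta chain that pairs with Itga6 alone, had 146 to 438 (median 233) in CLDN1 mAb and 60.8 to 509 (median 386) in Vehicle Control, against 36.8, 27.6, 22.8, 26.1 and 15.3 in Regular diet. It was low in Regular diet and higher in every diseased liver, by 3.25 ± 0.47 (SE) and 3.44 ± 0.47 (SE) on the log2 scale (adjusted p 9.28e-06 in Vehicle Control). Itga3, another epithelial laminin receptor chain, had 670 to 1265 (median 898) in CLDN1 mAb and 404 to 1543 (median 1244) in Vehicle Control, against 440, 364, 398, 388 and 423 in Regular diet. Vehicle Control 1, at 404, was the 1 diseased liver inside the Regular diet range (1.22 ± 0.28 and 1.40 ± 0.28, SE; adjusted p 0.000397 in Vehicle Control).

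Itga7, the laminin receptor chain best known from muscle, was the 1 integrin chain called lower in both diseased groups. It had 328 to 492 (median 399) normalized counts in CLDN1 mAb and 233 to 492 (median 323) in Vehicle Control, against 641, 638, 714, 508 and 872 in Regular diet. Both diseased groups lay below all Regular diet livers, with differences of -0.74 ± 0.19 (SE) and -0.99 ± 0.19 (SE) on the log2 scale (adjusted p 0.00444 and 0.000293 in CLDN1 mAb and Vehicle Control). With the same total per library these became -0.30 and -0.36 and lost the call (adjusted p 0.296 and 0.171). Itgb1, the common partner of most alpha chains, had 7626 to 12750 (median 10540) in CLDN1 mAb and 8698 to 14490 (median 11070) in Vehicle Control, against 7082, 11445, 9763, 10296 and 10368 in Regular diet. The 3 groups overlapped almost wholly (adjusted p 0.821 and 0.398 in CLDN1 mAb and Vehicle Control). With the same total, Itgb1 was higher in Vehicle Control by 0.80 (adjusted p 0.0129), where the median of all genes was 0.65, and after quantile normalization by 0.84 (adjusted p 0.00991), where that median was -0.13.

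A share within 1 library does not depend on how libraries are scaled to each other. Per kilobase of exon, Itgb1 made up a median of 39.4% of the summed integrin beta chains in CLDN1 mAb (range 31.9 to 42.1%) and 35.7% in Vehicle Control (29.5 to 55.2%), against 68.4% in Regular diet (44.0 to 70.1%). Itgb2 made up 25.7% in CLDN1 mAb and 27.1% in Vehicle Control, against 3.58% in Regular diet, with no overlap (20.7 to 31.9% and 20% to 33.9%, against 2.23 to 4.79%). Itgb5 had a larger median share than Itgb2 throughout, 29.4% in CLDN1 mAb, 31.7% in Vehicle Control and 25.6% in Regular diet. In normalized counts per kilobase, Itgb2 averaged 1695 ± 365 in CLDN1 mAb and 2157 ± 1017 in Vehicle Control, where Itgb1 averaged 2500 ± 453 and 2718 ± 488 (SD, n = 6 each). In Regular diet Itgb2 averaged 138 ± 40.9 and Itgb1 2399 ± 400.1 (SD, n = 5). Among alpha chains, Itgax made up a median of 23.6% in CLDN1 mAb and 27.1% in Vehicle Control, against 1.12% in Regular diet, and Itga5 made up 15.8%, 14.8% and 37.9% in that order. Itgb6 and Itgb8 stayed minor by this measure, with medians of 0.296% and 0.384% of the beta chains in CLDN1 mAb, and 0.443% and 0.561% in Vehicle Control.

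**Figure D3:**
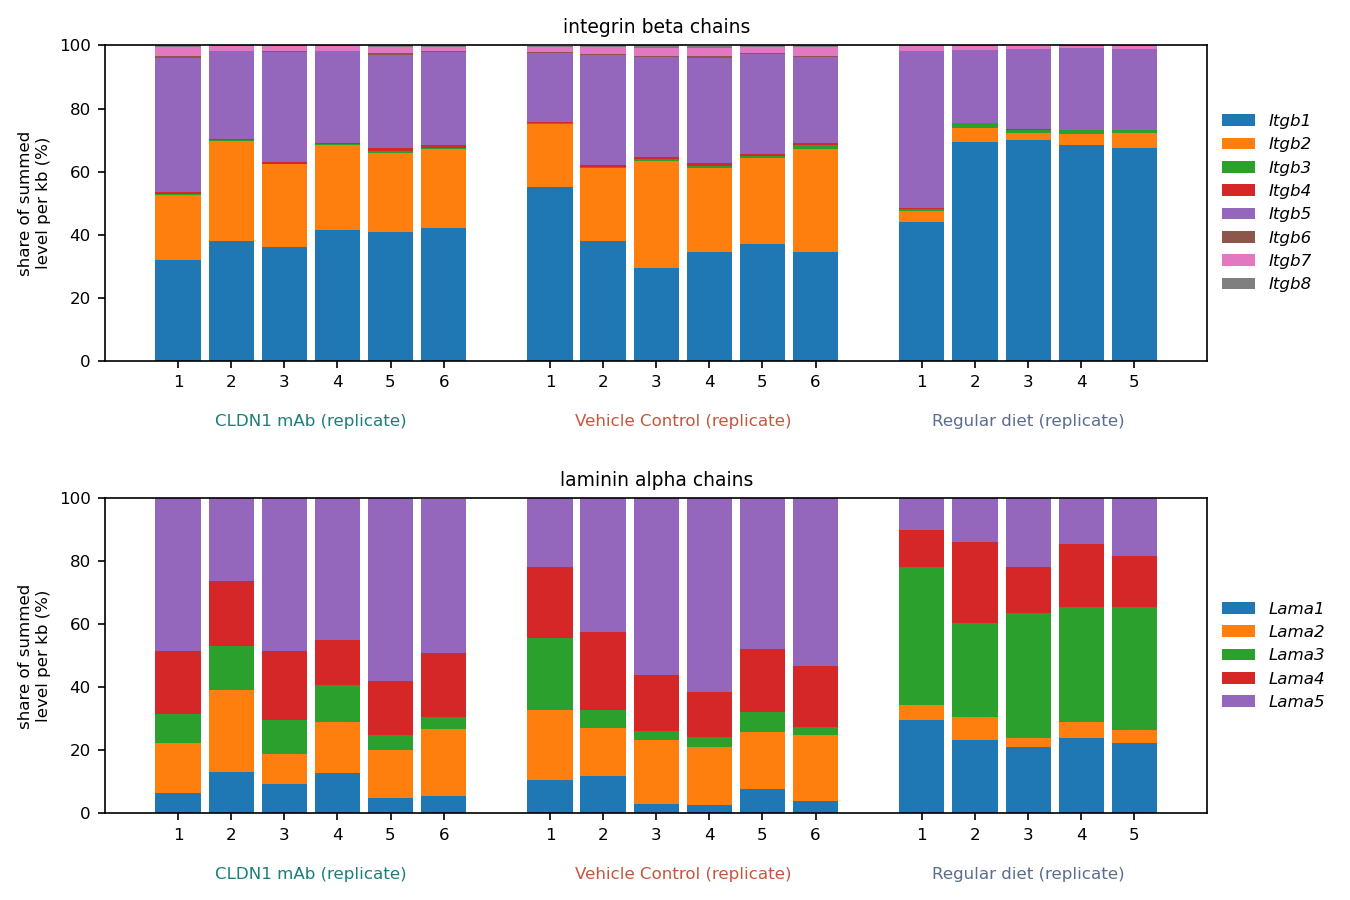
Share of each chain in the summed level per kilobase of exon of its class, 1 stacked bar per liver, for integrin beta chains and laminin alpha chains; bars run CLDN1 mAb, Vehicle Control, Regular diet. Itgb2 takes 20.7 to 31.9% of the beta chains in CLDN1 mAb and 20% to 33.9% in Vehicle Control, against 2.23 to 4.79% in Regular diet, while the median share of Lama3 is 10% and 4.25%, against 39.1%.

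The laminin alpha chains changed in opposite directions. Lama5, the alpha chain of most adult epithelial and vessel basement membranes, had 530 to 1924 (median 1017) normalized counts in CLDN1 mAb and 240 to 2902 (median 1925) in Vehicle Control, against 199, 227, 310, 255 and 258 in Regular diet. Vehicle Control 1, at 240, was within the Regular diet range and the other 11 diseased livers were above it. Differences were 2.11 ± 0.51 (SE) and 2.43 ± 0.51 (SE) on the log2 scale (adjusted p 0.000728 in Vehicle Control). Lama2, a chain of muscle, nerve and mesenchymal membranes, had 225 to 1150 (median 618) in CLDN1 mAb and 350 to 1633 (median 987) in Vehicle Control, against 140, 167, 63, 131 and 85.5 in Regular diet. Groups did not overlap (2.36 ± 0.43 and 2.88 ± 0.43, SE; adjusted p 2.42e-05 in Vehicle Control). Lama4, typical of capillary membranes, had 318 to 805 (median 463) in CLDN1 mAb and 261 to 1109 (median 668) in Vehicle Control, against 243, 450, 224, 377 and 235 in Regular diet. Groups overlapped. It passed in Vehicle Control (1.07 ± 0.32, SE, adjusted p 0.0094) though not after quantile normalization (adjusted p 0.0511), and in CLDN1 mAb it did not pass (0.70 ± 0.32, SE, adjusted p 0.0903) except in 3 alternatives, 1 of them without Vehicle Control 1 (adjusted p 0.0358).

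Lama3, the alpha chain of the anchoring laminin of epithelia, was the chain that fell most. It had 144 to 266 (median 181) normalized counts in CLDN1 mAb and 107 to 234 (median 121) in Vehicle Control, against 813, 466, 537, 604 and 515 in Regular diet. All 12 diseased livers were below all 5 Regular diet livers, with differences of -1.61 ± 0.23 (SE) in CLDN1 mAb (adjusted p 2.46e-05) and -2.04 ± 0.23 (SE) in Vehicle Control (adjusted p 1.26e-06) on the log2 scale. It was the 1 chain still called lower with the same total per library. Lama1, the chain of embryonic and a few adult membranes, had 125 to 226 (median 156) in CLDN1 mAb and 98.2 to 204 (median 146) in Vehicle Control, against 494, 327, 256, 358 and 264 in Regular diet. It too had no overlap, with differences of -1.003 ± 0.26 (SE) and -1.21 ± 0.26 (SE), and lost the call with the same total (adjusted p 0.0891 and 0.0598 in CLDN1 mAb and Vehicle Control).

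As shares per kilobase, Lama3 was the largest laminin alpha chain in Regular diet and a minor one in disease: its median was 10% in CLDN1 mAb (4.05 to 13.9%) and 4.25% in Vehicle Control (2.34 to 22.7%), against 39.1% in Regular diet (30% to 43.8%). Lama5 held 48.5% in CLDN1 mAb (26.2 to 58.1%) and 50.6% in Vehicle Control (21.9 to 61.5%), against 14.4% in Regular diet (10.1 to 21.6%). Lama1 held 7.87%, 5.89% and 23.4% in CLDN1 mAb, Vehicle Control and Regular diet. By median, Lama5 had the largest share in both diseased groups and Lama3 in Regular diet, and Vehicle Control 1, with 22.7% Lama3 and 21.9% Lama5, lay closest to Regular diet.

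Lamc3, a laminin gamma chain of restricted distribution, had 586 to 1459 (median 806) normalized counts in CLDN1 mAb and 312 to 2309 (median 1208) in Vehicle Control, against 71.2, 119, 85.8, 100 and 130 in Regular diet. Every diseased liver was above every Regular diet liver (3.10 ± 0.39 and 3.35 ± 0.39 on the log2 scale, SE, in CLDN1 mAb and Vehicle Control; adjusted p 1.89e-06 in Vehicle Control). Lamc1, the gamma chain of most laminins, averaged 1246 ± 406 in CLDN1 mAb and 1541 ± 522 in Vehicle Control, against 862 ± 254 in Regular diet (SD), and its call in Vehicle Control (0.81 ± 0.28, SE, adjusted p 0.0211) ended without Regular diet 1, Regular diet 3 or Vehicle Control 6 (adjusted p 0.0529, 0.0501 and 0.053).

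Of the 3 laminin beta chains, 1 (33.3%) was higher in CLDN1 mAb and 2 (66.7%) in Vehicle Control, where 24.8% and 29.8% of all genes were. Lamb1, the most widespread, had 497 to 3152 (median 1124) in CLDN1 mAb and 656 to 2701 (median 1705) in Vehicle Control, against 469, 682, 454, 603 and 455 in Regular diet. Its differences of 1.21 ± 0.41 (SE, adjusted p 0.0246) and 1.46 ± 0.41 (SE, adjusted p 0.00609) came with overlap in both groups, and the CLDN1 mAb call ended in 4 alternatives that each left out a library (Regular diet 3 or 5, CLDN1 mAb 5 or 6; adjusted p 0.0528 to 0.0584). Lamb2, of vessel walls and the neuromuscular junction, had 540 to 1514 (median 825) in CLDN1 mAb and 136 to 2408 (median 1518) in Vehicle Control, against 538, 388, 283, 421 and 295 in Regular diet. Vehicle Control 1, at 136, was the lowest of all 17 livers. The call in Vehicle Control (1.42 ± 0.56, SE, adjusted p 0.0434) ended in 14 alternatives (adjusted p up to 0.101). In CLDN1 mAb, where all 6 livers were above Regular diet, the difference of 1.22 ± 0.56 (SE) had an adjusted p of 0.0972, or 0.00867 without Vehicle Control 1. Lamb3, the partner of Lama3, averaged 278 ± 50.8 in CLDN1 mAb and 406 ± 232 in Vehicle Control, against 266 ± 50 in Regular diet (SD), and passed in neither comparison (adjusted p 0.908 and 0.41).

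Markers of bile duct and scar-forming cells were higher in diseased livers as well, while Lama3, an epithelial chain, was lower. All 10 cholangiocyte markers were higher in both diseased groups than in Regular diet, with summed levels of 5046 to 11670 in CLDN1 mAb and 4690 to 12318 in Vehicle Control, against 1954 to 2420 in Regular diet. Epcam, an epithelial adhesion protein of bile ducts, averaged 1450 ± 610, 2050 ± 938 and 69.5 ± 12.8 normalized counts in CLDN1 mAb, Vehicle Control and Regular diet (SD, n = 6, 6 and 5). Stellate cell and myofibroblast markers were higher for 8 of 10 in CLDN1 mAb and 7 of 10 in Vehicle Control, with sums of 27067 to 88394 and 31962 to 127555, against 12090 to 18880 in Regular diet. Smooth muscle markers were higher for 1 of 5 in each, a share no larger than the 24.8% of all genes higher in CLDN1 mAb and 29.8% in Vehicle Control. Endothelial markers were lower for 5 of 10 in CLDN1 mAb and 3 of 10 in Vehicle Control and higher for none, and hepatocyte markers lower for 3 of 9 and 7 of 9. Of all genes 14.1% were lower in CLDN1 mAb and 20.7% in Vehicle Control, so the endothelial share in Vehicle Control is near that of all genes. The 1 hepatocyte marker higher in both, Serpina1c, belongs to a family of near-identical copies. CLDN1 mAb 3, low in Itga8 and Lama2, had the lowest stellate sum of the 12 diseased livers, 27067, and Vehicle Control 6, the highest in 20 of 25 chains, had the highest, 127555. The part of these cell types in the chain differences was not tested.

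**Figure D4:**
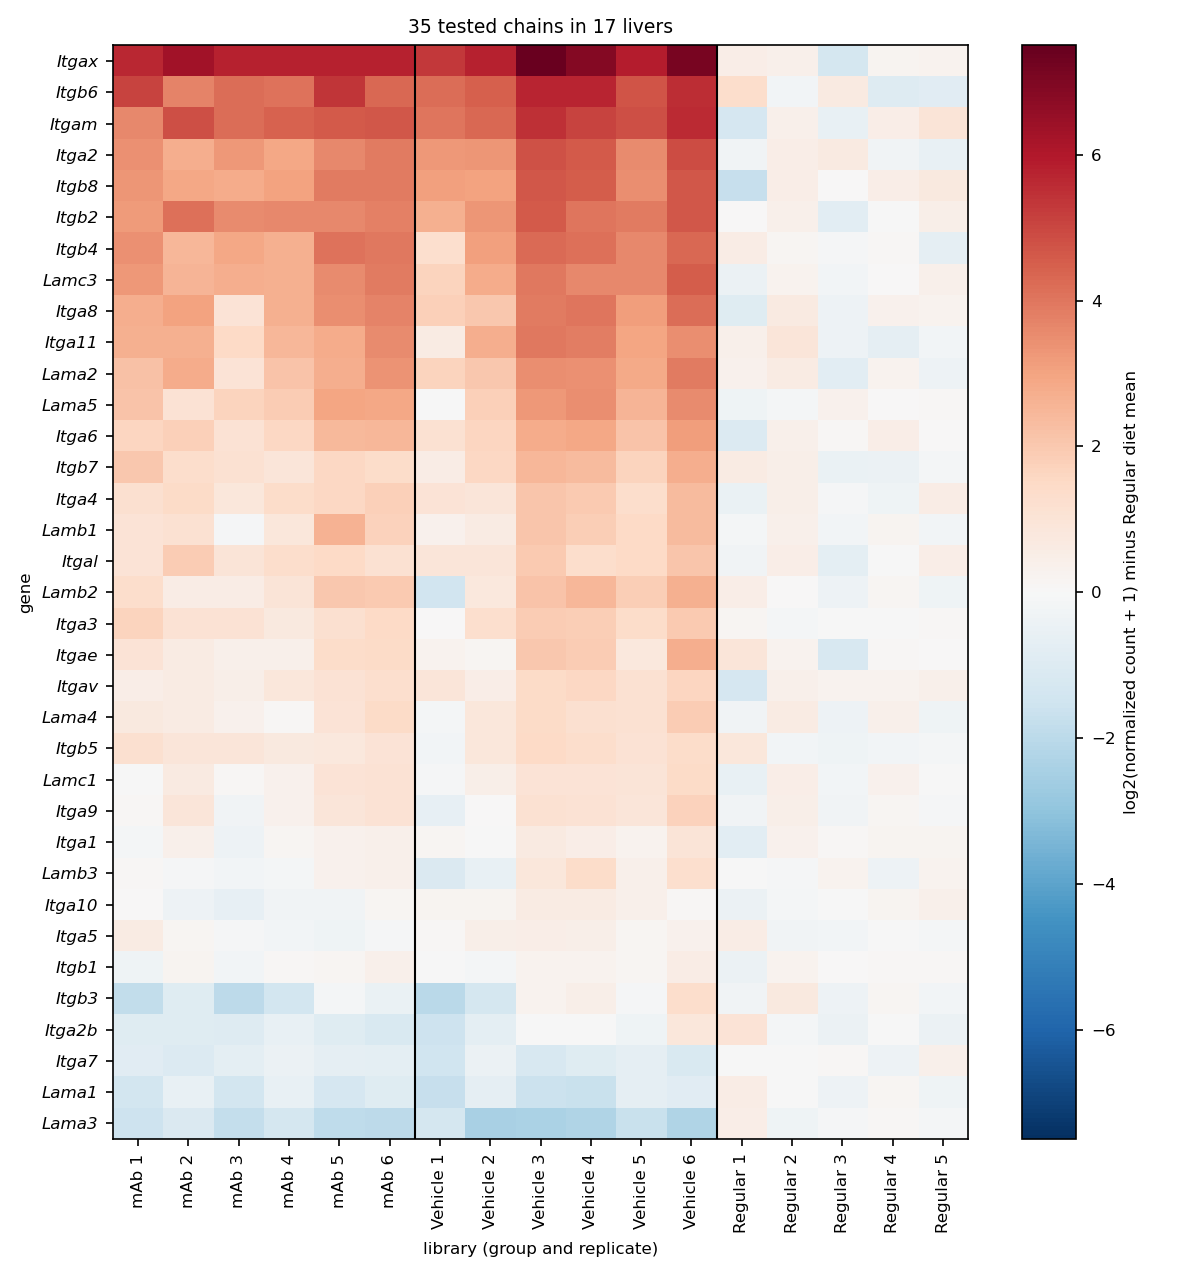
Level of 35 of the 36 tested chains in every liver, as log2(normalized count + 1) minus the Regular diet mean, with red above and blue below it; columns run CLDN1 mAb, Vehicle Control, Regular diet and rows are ordered by the Vehicle Control difference. Vehicle Control 3, 4 and 6 form the reddest columns and Vehicle Control 1 the palest of its group, and the bottom rows, ending in Lama3, are blue in both diseased groups.

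The antibody comparison gave no call. By limma, 0 of the 36 chains differed between CLDN1 mAb and Vehicle Control at an adjusted p below 0.05, and 0% of all 18624 genes did. No chain was called under any alternative run, and the filter-free fit called 2 genes of 35124. At an unadjusted p below 0.05 there were 2 of 36 chains, Itga10 and Itga2, where 7.47% of all genes were. The difference was above 0 for 3 of 36 chains, Lama3, Itga7 and Lama1, and for 44.3% of all genes. The chains' median difference was -0.31, against -0.046 over all genes, and relative to that median it stayed between -0.36 and -0.27 under the scalings tried. Chains vary together from liver to liver, so these 36 are not separate observations. Cell type markers differed too, with no call in any of the lists. All 9 tested hepatocyte markers had differences above 0 (0.42 to 1.11 on the log2 scale). Differences were below 0 for all 8 pan-leukocyte (-0.63 to -0.19), 10 endothelial (-1.15 to -0.02), 8 dendritic cell (-0.91 to -0.0975) and 6 Kupffer cell markers (-0.66 to -0.10), and for the 6 neutrophil and 3 platelet markers tested. The cholangiocyte, stellate cell, macrophage, T and NK cell and smooth muscle lists held both signs. Their part in the chain differences was not tested.

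The 6 chains with the smallest p were Itga10, Itga2, Lama3, Itgb3, Itga5 and Itga2b. Itga10 was at 74.3 to 127 (median 95.1) normalized counts in CLDN1 mAb and 123 to 178 (median 141) in Vehicle Control (-0.59 ± 0.18 on the log2 scale, SE, adjusted p 0.658). Itga2 was at 84 to 195 (median 130) and 122 to 378 (median 229) (-0.76 ± 0.34, SE, adjusted p 0.658), with CLDN1 mAb below Vehicle Control 3, 4 and 6 and mixed with the other 3. Lama3 was at 144 to 266 (median 181) and 107 to 234 (median 121) (0.43 ± 0.22, SE, adjusted p 0.659), higher in CLDN1 mAb and overlapping. Differences were -0.90 ± 0.47 (SE) for Itgb3, -0.31 ± 0.16 (SE) for Itga5 and -0.60 ± 0.32 (SE) for Itga2b, with adjusted p of 0.664, 0.665 and 0.665. In each of the 36 chains the 2 groups overlapped. The standard errors, 0.16 to 0.54 on the log2 scale, set how large a difference these 12 mice could show for a chain, and a missed threshold does not show that the groups were alike.

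Vehicle Control varied more than CLDN1 mAb in several of these chains. Itgax had an SD of 573 around a mean of 3292 in CLDN1 mAb and 2972 around 5509 in Vehicle Control, and Itgb2 1114 around 5174 and 3105 around 6583. The 3 Vehicle Control livers with most Itgax, replicates 3, 4 and 6, had 50064, 39907 and 47991 in summed leukocyte markers, the highest of the 12 diseased livers, and 541393, 510344 and 419335 in summed hepatocyte markers, the lowest. No spread was tested, and the part of the cell mixture and of the library total in it was not tested.

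Partner chains were compared across the 12 diseased livers, with Regular diet left out. For 14 of 16 textbook pairs the Pearson r had an adjusted p below 0.05 (two-sided permutation, 100000 resamples, adjusted over the 16 pairs). These values stand beside a high level among all chains: the median r over all 630 pairs of chains was 0.73, and 3 of the 16 partner pairs were below it. Itgam and Itgb2 had r = 0.92 and rho = 0.96 (adjusted permutation p 0.00016 and 0.00032), with r = 0.93 without the 2 livers farthest from the Itgam median, 0.93 within CLDN1 mAb and 0.99 within Vehicle Control. Itgav followed Itgb8 (r = 0.92, rho = 0.87, adjusted permutation p 0.000187 and 0.00123) more than Itgb6 (r = 0.68, rho = 0.65, adjusted permutation p 0.0219 and 0.0314) or Itgb5 (r = 0.41, rho = 0.52, adjusted permutation p 0.193 and 0.0887). Without the 2 farthest livers these r for Itgb8, Itgb6 and Itgb5 were 0.88, 0.59 and 0.35. They were 0.85, 0.24 and -0.26 within CLDN1 mAb, and 0.93, 0.86 and 0.62 within Vehicle Control. The order of Itgb6 and Itgb5 depended on scaling: r was 0.96, 0.81 and 0.69 with the same total, and 0.94, 0.61 and 0.68 after quantile normalization. Itgb5 passed under both (adjusted permutation p 0.00997 and 0.0155). That test sets r against 0, and with the same total the median r over all 630 pairs of chains was 0.84. The difference between the r of Itgav with Itgb8, Itgb6 and Itgb5 was not tested. Itga6 and Itgb4 had r = 0.86 and rho = 0.88 (adjusted permutation p 0.00046 and 0.00118), and 0.83 without the 2 farthest livers.

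Lama3 and Lamb3 had r = -0.56 and rho = -0.47 (adjusted permutation p 0.0618 and 0.129), with -0.64 and -0.57 within CLDN1 mAb and Vehicle Control, and -0.41 without the 2 farthest livers. With the same total per library that r was -0.26, and after quantile normalization -0.74 (adjusted permutation p 0.00809). Itga2b and Itgb3 had r = 0.83 and rho = 0.80 (adjusted permutation p 0.00103 and 0.00465) over 12 livers, with 0.98 within Vehicle Control, -0.25 within CLDN1 mAb and 0.62 without the 2 farthest livers, so the pooled value rests on Vehicle Control.

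**Figure D5:**
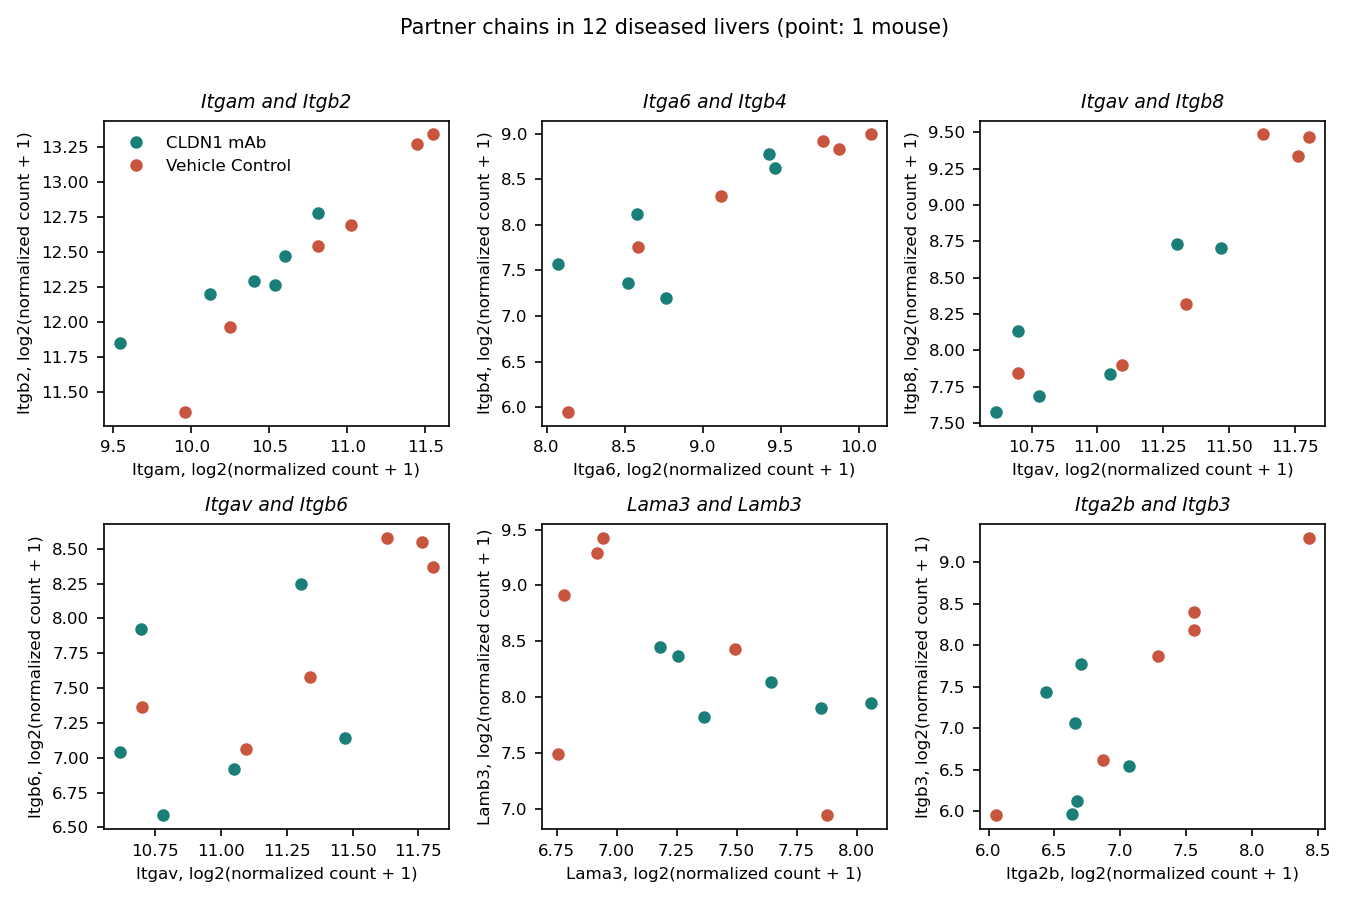
Levels of 6 partner pairs as log2(normalized count + 1), 1 point per diseased liver, CLDN1 mAb and Vehicle Control in different colours. Itgam and Itgb2 lie close to a line (r = 0.92), Lama3 and Lamb3 slope downward (r = -0.56), and the Itga2b and Itgb3 slope is carried by Vehicle Control.

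The proteins that act with these chains were compared the same way. Of 20 basement membrane partners of laminin, 13 were higher and 3 lower in each diseased group than in Regular diet (all genes: 24.8% and 14.1% in CLDN1 mAb, 29.8% and 20.7% in Vehicle Control), with a median difference of 1.73 in CLDN1 mAb and 2.0 in Vehicle Control on the log2 scale. Nid1, which links laminin to collagen, averaged 3060 ± 935 in CLDN1 mAb and 4010 ± 561 in Vehicle Control, against 782 ± 314 in Regular diet (SD, n = 6, 6 and 5). The collagen chain gene Col4a6, rare in Regular diet, averaged 266 ± 165 and 381 ± 233, against 12.1 ± 5.94. Col18a1, the endostatin-bearing collagen that hepatocytes make, went the other way, with 31900 ± 5860 and 20200 ± 9160, against 54600 ± 4560 (-0.79 and -1.54 on the log2 scale in CLDN1 mAb and Vehicle Control).

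Among 28 tested integrin ligands other than laminins, 16 were higher and 4 lower in CLDN1 mAb, and 18 higher and 6 lower in Vehicle Control, with medians of 1.15 and 1.57. The share lower is near that of all genes in both comparisons. Spp1, osteopontin, a ligand of alpha-V and alpha-9 integrins, averaged 53100 ± 12900 in CLDN1 mAb and 74000 ± 21200 in Vehicle Control, against 2710 ± 648 in Regular diet. Tnc, tenascin, a ligand of Itga9 and Itga8, averaged 678 ± 244 and 826 ± 236, against 51.6 ± 8.91. Fga, a fibrinogen chain secreted by hepatocytes and bound by Itga2b, was lower, with 141000 ± 18600 and 117000 ± 53200, against 348000 ± 66400. Of 10 laminin receptors that are not integrins, 4 were higher and 2 lower in CLDN1 mAb, and 5 higher and 2 lower in Vehicle Control, with medians of 0.32 and 0.57. Of all genes, 24.8% were higher and 14.1% lower in CLDN1 mAb and 29.8% and 20.7% in Vehicle Control, so the receptors lower in Vehicle Control come near the share of all genes. Lgals3, a galactose-binding lectin of macrophages that binds laminin sugars, averaged 13800 ± 2250 and 25400 ± 13200, against 369 ± 254, and Sdc1, the hepatocyte syndecan, 8120 ± 835 and 6210 ± 2090, against 17400 ± 3150.

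Inside the cell, integrin activators and adaptors were mixed, with 9 of 28 higher and 3 lower in CLDN1 mAb, and 10 higher and 6 lower in Vehicle Control, and a median difference of 0.11 and 0.13. These shares are near the all-gene shares of 24.8% higher and 14.1% lower in CLDN1 mAb, and 29.8% and 20.7% in Vehicle Control. The 3 with the smallest p in Vehicle Control are known from white blood cells or epithelium. Apbb1ip, which brings talin to leukocyte integrins, averaged 439 ± 75 in CLDN1 mAb and 621 ± 226 in Vehicle Control, against 97.7 ± 33.2 in Regular diet. Parvg, the leukocyte parvin, averaged 331 ± 64.9 and 421 ± 175, against 63.9 ± 20.5, and Fermt1, the epithelial kindlin, 284 ± 118 and 358 ± 155, against 45.7 ± 12.2. Fermt2, the broadly expressed kindlin, was lower, with 5300 ± 613 and 4830 ± 1010, against 9350 ± 2380 (-0.78 and -0.93 on the log2 scale in CLDN1 mAb and Vehicle Control). Of these lists, no gene was called between CLDN1 mAb and Vehicle Control.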

How the data were processed

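RNA-seq of 17 mouse livers was analysed from 1 table of 52545 genes, of which 17421 are at 0 in every library. Its values are a signal, gene counts normalized between libraries with cuffnorm by the authors, per the deposited table. The submitters' processing notes name Cufflinks 2.2.1 and build mm10, and the aligner, annotation, strand setting and scaling option are not given in the sources used here. Low values lie on steps, from which fragments per library were estimated, but whole reads could not be recovered for every gene, so no count model was used. Symbols were matched for 52398 identifiers (99.7%) in GENCODE vM21 (GRCm38), which also gave exon lengths.

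Genes with at least 10 in at least 5 libraries (18624) were fitted in R 4.3.3 with limma 3.58.1 (trend) on log2(value + 1), with group as the only term, all 17 libraries and Benjamini-Hochberg adjustment over all genes tested. The steps were tested on simulated data. Python 3.11, numpy 2.4.6 and pandas 2.3.3 made the summaries. Alternatives were a pseudocount of 10, no filter, 3 other scalings, only the groups compared, a replicate block, robust variances and leaving out each library. The labels do not say whether replicate numbers pair the mice, and they were not treated as pairs. The text describes 36 of the 37 chains, with values in each group, and 1 chain, which enters the counts and medians over chains, is not reported here by name. Those called at 2-fold or more and the 6 of smallest p between diseased groups are given in full. The untested Itgad had 3.21 to 6.57 normalized counts in CLDN1 mAb, 1.67 to 15.5 in Vehicle Control and 0 to 1.53 in Regular diet. Of each partner or marker list up to 3 genes of smallest p in Vehicle Control against Regular diet and 1 of the opposite direction could be named. Members were selected by name alone, though the naming rule and the lists were set with earlier results of these data known.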

Additional observations from a re-analysis of the deposited data

Results flagged for a closer look

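Single libraries lay far from the rest of their group in 11 of the 108 groups of chain values examined (36 chains in 3 groups), by the gap between the extreme library and its neighbour over the group's range. For separate groups of normally distributed values, chance alone gives about 1 in 20. Chains vary together from liver to liver, so the 108 groups are not separate, and an excess over chance was not tested.

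CLDN1 mAb 2 had an Itgax level of 4455 normalized counts, above the other 5 CLDN1 mAb livers. Vehicle Control 1 was the lowest of its 6 livers for Itga11 at 11.7, Itga3 at 404 and Itgb5 at 3334. Regular diet 1 was the highest of its 5 livers for Itga5 at 3427, Itga2b at 388 and Itgb5 at 7001, and the lowest for Itga1 at 935, Itgav at 496 and Itgb8 at 7.37. Regular diet 3 had the lowest Itgax of its group, at 21.9. Regular diet 1 accounts for 6 of the 11 and Vehicle Control 1 for 3. Regular diet 1 also had the largest total of all libraries, 74.6 M (mega), and the largest hepatocyte marker sum, 3419826, and the part of either in these values was not tested.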

How the results depend on the processing

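The chains called higher numbered 22 to 26 in Vehicle Control and 19 to 23 in CLDN1 mAb when each library was left out in turn, and those called lower 3 to 3 and 3 to 5. Over the same fits, 5145 to 5951 of all 18624 genes were called higher in Vehicle Control and 4198 to 5142 in CLDN1 mAb. Genes called lower numbered 3337 to 4729 and 2144 to 3886. With the same total per library, 1 chain was called lower in each, in place of 3 in Vehicle Control and 4 in CLDN1 mAb. The fits with a replicate block gave 23 chains higher and 3 lower in Vehicle Control, 21 and 4 in CLDN1 mAb, and 0 between CLDN1 mAb and Vehicle Control. With the block, 5393 of all genes were higher and 3795 lower in Vehicle Control, and 4408 and 2563 in CLDN1 mAb. The mouse closest in deviation carried the same number for 0 of 5, 1 of 5 and 1 of 6 mice in the 3 comparisons. So few mice cannot exclude pairing. Numbers were not treated as pairs, since the labels do not give any. Partner pairs with an adjusted p below 0.05 numbered 14 to 16 over the scalings and pseudocounts. That count takes r of either sign: the 16 came after quantile normalization, where Lama3 and Lamb3 passed with r = -0.74.

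Directions turned for chains that had passed no threshold. In CLDN1 mAb against Regular diet, Itga10 became 0.21 with the same total, Lamb3 -0.40 after quantile normalization and -0.0578 with the replicate block, Itgb1 -0.0178 with the block, and Itga5 -0.031 with median ratio scaling. Leaving out single libraries gave -0.10 to 0.20 for Itga1, -0.10 to 0.16 for Itga5, -0.0554 to 0.14 for Itgb1 and -0.0368 to 0.13 for Lamb3. In Vehicle Control against Regular diet, Itga10 became -0.41 and Lamb3 -0.11 after quantile normalization, Itga2b 0.32 and Itgb3 0.39 with the same total, and Itgb3 ranged from -0.55 to 0.12 over the single libraries left out. With Regular diet 1 and Vehicle Control 1 left out together, Itga2b became 0.20 and Itgb3 0.0538 in Vehicle Control, and Itga1 -0.10 and Itgb1 -0.0554 in CLDN1 mAb. The cause was not tested.

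Depth was 27.7 to 59.5 M (mega) estimated fragments, and chains near the floor in Regular diet, such as Itgb6 and Itga11, rest on few reads there, and their differences are understated on this scale.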
